A study of Mus musculus with 2 samples.

Results

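The genes described here encode the proteins of the cytoplasmic ribosome. They were taken by symbol alone: every gene whose symbol begins with Rps or Rpl and a digit, and the stalk genes Rplp0, Rplp1 and Rplp2, without the Rps6k kinases. This gave 97 of the 14789 gene symbols measured, among them 47 of the large subunit, 3 of the stalk, 32 of the small subunit and 14 pseudogene rows. Pseudogene rows were taken by name, and Rpl6l by its annotation. Of them Rpl10-ps3, Rpl9-ps6 and Rps12-ps3 are annotated as protein-coding despite their names. The remaining member is Rps19bp1, which encodes a protein that binds Rps19. Rpl7l1, counted with the large subunit, also carries only a ribosomal protein-like name. Of the 97, 92 had at least 50 UMIs (unique molecular identifiers, each standing for 1 captured transcript) summed over all cells, and Rpl39l and Rpl7a-ps3 had 1 UMI each in the 5 classes below. The rule itself uses no measured value.

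The cells came from the pancreas of adult Tff2CreERT2; R26-tdTomato mice given tamoxifen, in which a Cre recombinase driven from Tff2 permanently switches on a red reporter. CD45-, TER119-, EpCAM+ and RFP+ cells were sorted and made into 10x Genomics libraries. The labels name 2 biological replicates of this 1 group and no control group, and they do not say which cells belong to which replicate. All values are therefore those of 1 pooled sample: there is no replicate check and no test, and the 95% intervals given are exact and cover counting error only.

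The table held 728 cells and 2353008 UMIs, with 1004 to 53222 UMIs per cell. Cells were assigned by their own transcripts: acinar cells had at least 10% of UMIs from Ctrb1, Try4, Cela1 and Prss2 (262 cells), ductal cells at least 2 UMIs of Krt19 and Epcam (32), endothelial cells at least 5 of Kdr, Cdh5, Pecam1 and Egfl7 (159), B cells at least 2 of Cd79a, Cd79b and Ms4a1 (101) and T cells at least 2 of Cd3e, Cd3d and Cd3g (68). Another 10 cells met more than 1 rule and were left out, and 96 met none. The endothelial, B and T classes go against the labelled EpCAM+ CD45- gate. All 37 further markers, 7 or 8 for each class, were highest in their own class. In the endothelial class 2 cells held 6809 of its 6861 globin UMIs. For acinar cells, 5 cells had 5 to 10% of their UMIs from the acinar rule genes, with 8.99% of UMIs from ribosomal protein genes, and 5 had 10 to 15%, with 22.2%. Just inside the count cutoffs, with the lowest number of UMIs allowed, lay 5 ductal, 4 endothelial, 4 B and 8 T cells, at 18.4, 15.1, 32.4 and 48.0%. With 1 UMI fewer lay 5, 5, 6 and 3 cells, at 23.4, 18.2, 28.4 and 28.8%. Barcodes ended in 1 (667 cells) or 2 (61 cells), and 7 barcode sequences occurred under both endings. All 7 such cells of ending 1 and 6 of those of ending 2 were in the acinar class.

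Each cytoplasmic ribosome is built from a small subunit, which reads the message, and a large subunit, which joins amino acids. It needs each of its core proteins outside the stalk in equal number. Messages for ribosomal proteins start with a stretch of C and T bases, the terminal oligopyrimidine or TOP motif, through which the growth-regulating kinase mTOR controls how much of them is translated. Acinar cells make and secrete digestive enzymes, ductal cells line the channels that carry them away, and resting lymphocytes are small cells with little cytoplasm.

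The start sites of the genes on which the results turn are shown from 40 bases before to 20 bases after the annotated start, from RefSeq on build GRCm38.p6, 5′ to 3′ on the strand of the gene. Capitals mark the longest unbroken run of C and T within the window from -10 to +20, counted inside the window alone, so a run that starts before it is marked from -10 on. The first pair are Rps27 (chr3:90213629-90213688, minus strand) and its intronless copy Rps27rt (chr9:114982720-114982779, minus strand), shown because their sequence overlap limits how their reads can be told apart. The next is the separate paralog Rps27l (chr9:66946046-66946105, plus strand). Rpl41 (chr10:128549149-128549208, minus strand), Rpl38 (chr11:114668540-114668599, plus strand) and Rps24 (chr14:24490638-24490697, plus strand) took a larger share in acinar cells, and Rps15a (chr7:118116128-118116187, minus strand) and Rps18 (chr17:33955646-33955705, minus strand) a smaller one.
Rps27: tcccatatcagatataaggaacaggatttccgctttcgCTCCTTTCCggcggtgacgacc
Rps27rt: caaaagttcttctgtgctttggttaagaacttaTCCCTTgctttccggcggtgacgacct
Rps27l: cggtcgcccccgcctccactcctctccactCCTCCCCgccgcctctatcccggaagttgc
Rpl41: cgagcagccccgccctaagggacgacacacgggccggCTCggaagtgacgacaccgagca
Rpl38: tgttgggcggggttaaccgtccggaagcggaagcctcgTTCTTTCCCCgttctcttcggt
Rps24: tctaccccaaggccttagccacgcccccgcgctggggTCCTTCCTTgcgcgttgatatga
Rps15a: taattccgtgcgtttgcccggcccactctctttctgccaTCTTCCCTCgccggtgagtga
Rps18: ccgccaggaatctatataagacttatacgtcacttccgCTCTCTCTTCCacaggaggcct

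Of the 97 members, 63 had a promoter entry. A C and T run of at least 6 bases lay within the window from -10 to +20, counted the same way, in 36 of these 63 (57.1%), against 28.6% of all 27025 promoters. The ETS-type motif CCGGAAG, searched on both strands over 250 bases before to 50 after the start, was present in 38.1% of the 63 and in 9.12% of all promoters. The motif AAGATGGC was found in 7.94% against 2.88%, and TATAAA in 9.52% against 14.2%. Rpl38, which took a larger share in acinar cells, and Rps18, which took a smaller one, both have a long run and CCGGAAG. The annotated start of Rpl41 shows a run of 3 bases. These are letters in a window and no evidence of binding. From position +2 of Rps27 and +1 of Rps27rt, 38 bases are identical.

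Transcripts of ribosomal protein genes made up very different parts of the 5 cell classes. They took 7.52% of UMIs in acinar cells (95% interval 7.47 to 7.57; 83017 of 1103355 UMIs), 19.5% in ductal cells (19.2 to 19.7), 14.7% in endothelial cells (14.6 to 14.8), 39.8% in B cells (39.6 to 40.0) and 47.1% in T cells (46.9 to 47.3). The acinar value depends on what it is divided by, because the secretory genes of acinar cells (35 of 39 listed genes were measured) took 77.2% of their UMIs and 1.63 to 2.35% in the other classes. Of the UMIs outside these genes, ribosomal protein genes took 33.0% in acinar, 19.8% in ductal, 15.1% in endothelial, 40.6% in B and 47.9% in T cells. Acinar cells were thus the lowest class on the first scale and stood above ductal and endothelial cells on the second. Free RNA was not measured here, and no class lacks ribosomal protein transcripts, so no class shows its level.

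Single cells followed their class. The share of a cell's UMIs ran from 0.571 over a median of 6.37 to 27.9% in acinar cells, from 11.4 over 19.4 to 28.7% in ductal cells and from 4.75 over 14.4 to 23.0% in endothelial cells. It ran from 15.2 over 39.3 to 52.2% in B cells and from 25.9 over 47.3 to 59.2% in T cells. All 68 T cells lay above all 159 endothelial cells, and 100 of 101 B cells did. B and T cells overlapped: 10 of the 68 T cells lay above every B cell. Outside secretory genes the acinar cells spread widest, from 1.44 over a median of 27.9 to 55.3%, and 111 of 262 lay above every ductal cell and 12 below every one. Median depth was 2101.5 UMIs in acinar, 3294.5 in ductal, 1879 in endothelial, 1622 in B and 2415 in T cells, so the order of the levels did not follow that of the depths. Within acinar cells the median share was 5.61% in the shallower and 6.68% in the deeper 131 cells. With each cell thinned to 1000 UMIs, the median cell showed 37 of the 97 members in acinar, 71 in ductal, 64 in endothelial, 82 in B and 84 in T cells (unthinned 55.5, 87.5, 79, 86 and 88).

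**Figure D1:**
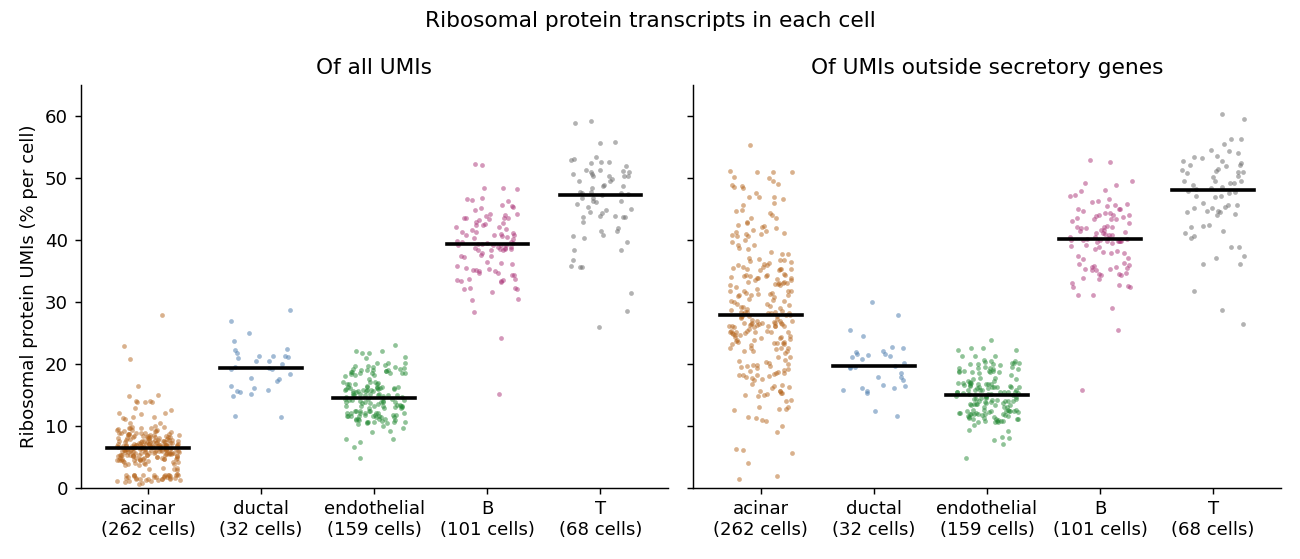
Each point is 1 cell and the bar is the class median; the vertical axis gives the percent of the cell's UMIs from the 97 ribosomal protein genes, of all UMIs (left) and of UMIs outside secretory genes (right). The acinar median of 6.37% is the lowest of the 5 on the left, and on the right, at 27.9%, it lies above the ductal and endothelial medians.

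Acinar cells held 0.387 times the ductal level of all UMIs (0.381 to 0.392), but 1.67 times (1.64 to 1.69) outside secretory genes. Of the 90 members with at least 50 UMIs over both classes, 0 were at least 2-fold higher and 73 at least 2-fold lower, where 11.1% of all genes over that floor were higher and 72.1% lower. Outside secretory genes 19 were higher and 1 lower, against 29.7% and 23.9% of all genes. The median member log2 ratio was -1.61, against -2.10 for all genes. The members' count of lower genes on all UMIs is close to that background.

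Against endothelial cells the acinar level was 0.511 times (0.506 to 0.517) on all UMIs and 2.19 times (2.17 to 2.22) outside secretory genes. On all UMIs 0 of 91 members were at least 2-fold higher and 54 lower (7.37% and 80.3% of all genes), and outside secretory genes 43 were higher and 0 lower (21.3% and 42.8%). The median member log2 ratio was -1.16 on all UMIs, against -2.69 for all genes. The 3 members with the highest level relative to endothelial cells on all UMIs were Rps27l at 1.83 times (1.52 to 2.21), Rplp1 at 1.52 times (1.41 to 1.65) and Rpl38 at 1.26 times (1.16 to 1.37).

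Against both lymphocyte classes the acinar level was lower on either scale. It was 0.189 times the B cell level (0.187 to 0.191) and 0.160 times the T cell level (0.158 to 0.161) on all UMIs, and 0.814 times (0.806 to 0.822) and 0.690 times (0.684 to 0.697) outside secretory genes. Of 90 members, 86 were at least 2-fold lower than in B cells (60.6% of all genes) and 1 was higher (19.3%), and 88 were lower than in T cells (60.0%) and 1 higher (20.5%). Outside secretory genes 23 were lower and 4 higher than in B cells (22.5% and 41.3% of all genes), and 34 lower and 3 higher than in T cells (22.6% and 42.0%). The 1 member higher on all UMIs was Rps27l in each case, at 3.28 times the B cell level (2.39 to 4.61) and 4.84 times the T cell level (3.25 to 7.53). These comparisons share the acinar cells, so they are not separate observations.

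Among the other classes the total is not dominated by secretory genes. Ductal cells held 1.32 times the endothelial level (1.30 to 1.34), with 6 of 90 members at least 2-fold higher and 0 lower (11.0% and 27.9% of all genes). B cells held 2.70 times the endothelial level (2.67 to 2.73), with 82 of 91 higher and 0 lower (12.8% and 42.8%). T cells held 3.20 times the endothelial level (3.17 to 3.23), with 89 of 90 higher and 1 lower (13.4% and 44.3%). In B and T cells the members therefore stood far from the background in the higher direction. Rps27l was the 1 lower member in T cells, at 0.377 times (0.236 to 0.581), and it was the lowest in B cells at 0.558 times (0.384 to 0.796). Rps15a, a small-subunit protein, was at 4.15 times the endothelial level in B cells (3.76 to 4.58) and at 5.78 times in T cells (5.26 to 6.36). Rpl12, at the base of the stalk, was at 6.36 times in T cells (5.41 to 7.49) and at 4.0 times in B cells (3.37 to 4.75).

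The mixture of ribosomal protein transcripts also differed. To see it apart from the total, each member was taken as a share of all ribosomal protein UMIs of the class, a scale that secretory genes do not touch. On this scale 12 of 90 members were at least 1.5-fold higher and 29 lower in acinar than in ductal cells. Of all genes, scaled by the same sums, 25.1% were higher and 54.0% lower. This scale is centred on the members, so such percents of all genes also hold the difference in the summed level. Against endothelial cells 14 of 91 were higher and 30 lower (13.4% and 71.7% of all genes), against B cells 13 and 29 of 90 (53.9% and 24.4%) and against T cells 12 and 25 of 90 (59.4% and 20.5%). The mixtures of ductal, B and T cells lay closer to that of endothelial cells. In ductal cells 6 of 90 members were higher and 0 lower than in endothelial cells (11.1% and 47.7% of all genes). In B cells 2 of 91 were higher and 6 lower (4.11% and 86.3%), and in T cells 2 and 4 of 90 (3.39% and 87.7%). Ductal, B and T cells were not compared with each other on this scale. The SD of the members' log2 share ratios was 0.68, 0.75, 0.88 and 0.92 for acinar cells against ductal, endothelial, B and T cells. It was 0.30, 0.43 and 0.45 for ductal, B and T cells against endothelial cells. The spread was lowest for ductal cells, although that class had the fewest UMIs of the 5.

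**Figure D2:**
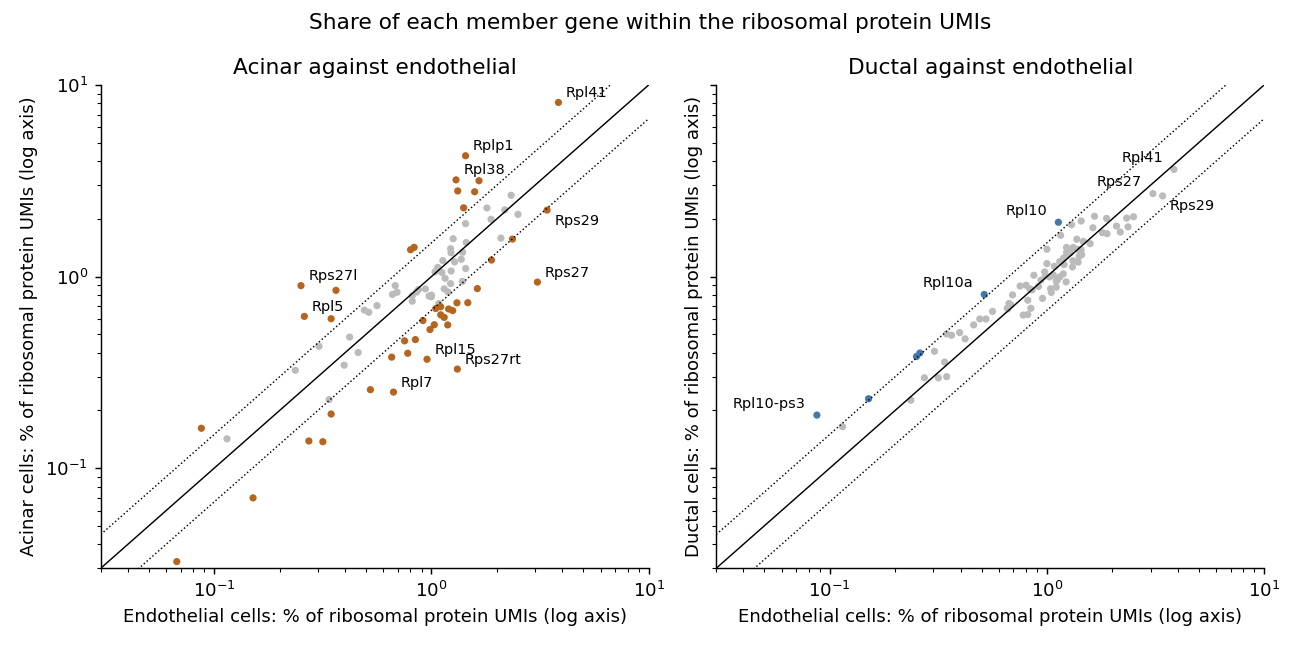
Each point is 1 member with at least 50 UMIs over both classes; axes are its percent of ribosomal protein UMIs (log axes) in endothelial cells and in acinar (left) or ductal (right) cells, the solid line is equality and the dotted lines are 1.5-fold. Coloured points lie beyond 1.5-fold: 44 of 91 on the left and 6 of 90 on the right. Of all genes scaled by the same sums, 13.4% were higher and 71.7% lower on the left. On the right 11.1% were higher and 47.7% lower. The scale is centred on the members' own sum, so these percents of all genes also hold the difference in that sum.

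Rps27 and its relatives were the members with the most class-dependent shares. All 3 encode forms of the same small-subunit protein, and Rps27l is known as a target of p53. Rps27 (chromosome 3, 90212522 to 90213651, minus strand) took 0.935% of ribosomal protein UMIs in acinar cells (776 UMIs), 2.71% in ductal cells, 3.07% in endothelial cells, 4.23% in B cells and 3.67% in T cells. Rps27rt (chromosome 9, 114982366 to 114982739, minus strand) took 0.329, 1.21, 1.32, 1.86 and 1.62% in the same order. All 50-base stretches of the last 300 bases of Rps27 occur in Rps27rt, so how reads were split between them is uncertain, and they are best read as a sum. That sum was 1.26% in acinar cells (1.19 to 1.34), 3.92% in ductal, 4.39% in endothelial, 6.09% in B and 5.29% in T cells. The acinar share of the sum was 0.322 times the ductal one (0.295 to 0.352), 0.288 times the endothelial one (0.267 to 0.310), 0.208 times the B cell one (0.194 to 0.222) and 0.239 times the T cell one (0.223 to 0.256).

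The same was seen cell by cell. In the 215 acinar cells with at least 50 ribosomal protein UMIs the share of Rps27 and Rps27rt together ran from 0 over a median of 0.935 to 4.63%, and in the 32 ductal cells from 1.72 over 3.85 to 5.63%. In the 159 endothelial cells it ran from 0.633 over 4.28 to 8.42%, in the B cells from 2.75 over 6.51 to 10.4% and in the T cells from 1.90 over 5.35 to 9.97%. Acinar cells overlapped the lower ends of the other classes. With each cell thinned to 1000 UMIs a UMI of either gene was seen in 40.1% of acinar cells (63.4% unthinned), 100% of ductal cells and 98.1% of endothelial cells. All B and T cells had such a UMI. Thinning counted UMIs of all genes, so these percents also depend on the low ribosomal protein level of acinar cells on that scale. Rps27l, whose share was higher in acinar than in ductal cells, was seen in 38.9% of thinned acinar and 37.5% of thinned ductal cells.

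Rps27l (chromosome 9, 66946086 to 66949516, plus strand) ran the other way. It took 0.896% of ribosomal protein UMIs in acinar cells (744 UMIs), 0.382% in ductal (93), 0.251% in endothelial (138), 0.0517% in B (41) and 0.0296% in T cells (25). Of the UMIs of Rps27l and Rps27 together, Rps27l held 48.9% in acinar cells (46.4 to 51.5), 12.4% in ductal (10.1 to 14.9), 7.54% in endothelial (6.37 to 8.85), 1.21% in B (0.869 to 1.64) and 0.799% in T cells (0.518 to 1.18). The last pair of intervals overlap and the others do not. Rps27rt is left out of this pair, although its reads cannot be told from those of Rps27 with certainty. Set beside the sum of Rps27 and Rps27rt (1049 UMIs in acinar and 953 in ductal cells), each percent of Rps27l would be lower. As CPM (counts scaled to a fixed total of all UMIs of the class), Rps27l stood at 674 in acinar, 744 in ductal, 369 in endothelial, 206 in B and 139 in T cells. The acinar and ductal intervals (627 to 725 and 600 to 911) overlap, so its level on this scale did not separate those classes.

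Among large-subunit genes, Rpl41 led the acinar mixture. Rpl41 (chromosome 10, 128548114 to 128549305, minus strand) encodes the smallest member, with a coding sequence of 75 bases. It took 8.10% of ribosomal protein UMIs in acinar cells (7.92 to 8.29), 3.62% in ductal (3.39 to 3.86), 3.84% in endothelial (3.68 to 4.0), 2.80% in B (2.69 to 2.92) and 2.54% in T cells (2.44 to 2.65). Ductal and endothelial cells overlap, and the other neighbours in that order do not. Rpl38 (chromosome 11, 114668524 to 114672331, plus strand), known for its part in translating Hox messages in the embryo, took 3.20, 1.87, 1.30, 1.21 and 1.07% in acinar, ductal, endothelial, B and T cells. The acinar share of Rpl38 was 1.71 times the ductal one (1.55 to 1.90) and 2.99 times the T cell one (2.77 to 3.23).

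The stalk proteins draw translation factors to the ribosome, with Rplp0 as the base and Rplp1 and Rplp2 as the arms. Together they took 6.90% of ribosomal protein UMIs in acinar, 4.22% in ductal, 4.03% in endothelial, 3.79% in B and 4.82% in T cells. Rplp1 (chromosome 9, 61913284 to 61914542, minus strand) alone took 4.27% in acinar cells, against 1.38% in ductal, 1.44% in endothelial, 1.22% in B and 1.65% in T cells. Its acinar share was 3.10 times the ductal one (2.77 to 3.48) and 2.97 times the endothelial one (2.75 to 3.22). The other stalk genes did not follow to that extent: Rplp0 took 1.23, 1.57, 1.37, 1.37 and 1.83%, and Rplp2 1.40, 1.27, 1.22, 1.20 and 1.35% in the same order. Most of the higher acinar share of the stalk thus lay in Rplp1.

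Other members with a higher acinar share were spread over both subunits. The small-subunit gene Rps24 took 2.80% in acinar cells against 1.42% in ductal and 1.32% in endothelial cells. Rpl32 took 2.77% against 1.48% and 1.58%, Rpl36 2.28% against 1.27% and 1.41%, and Rpl28 1.42% against 0.863% and 0.832%. Rpl12 was at 2.33 times its endothelial share (1.99 to 2.74) and at 1.17 times its T cell share (1.05 to 1.31), so its acinar share lay nearest to that of T cells (0.722%), above it under barcode ending 1 (0.869%) and below it under ending 2 (0.694%). The 10 leading members of each class took 33.7% of ribosomal protein UMIs in acinar cells and 22.8 to 25.5% in the other classes.

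**Figure D3:**
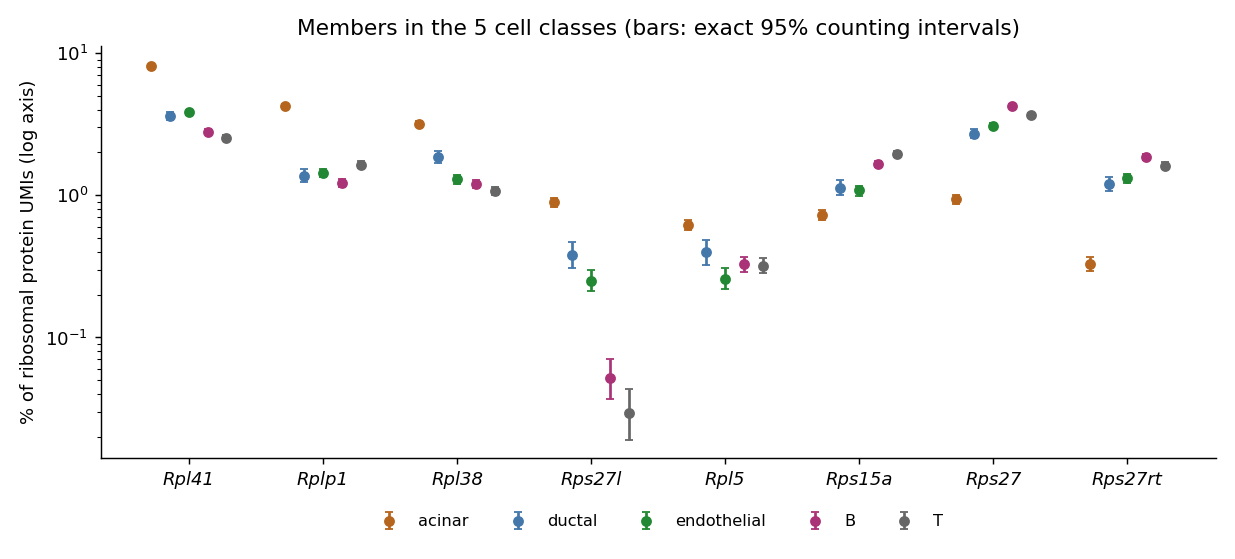
Percent of ribosomal protein UMIs (log axis) of 8 members in each of the 5 cell classes; points are values over all cells of a class and bars are exact 95% counting intervals. Rpl41, Rplp1, Rpl38, Rps27l and Rpl5 are highest in acinar cells, and Rps15a, Rps27 and Rps27rt are lowest there; for Rpl5 this holds under barcode ending 1 and not under ending 2.

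Members with a lower acinar share included several of the larger proteins. Rpl7 took 0.249% of ribosomal protein UMIs in acinar cells (207 UMIs), 0.724% in ductal, 0.668% in endothelial, 0.631% in B and 0.621% in T cells. Rpl15, deep in the large subunit, took 0.370, 0.769, 0.954, 0.696 and 0.692% in the same order. Rps15a took 0.723, 1.13, 1.08, 1.66 and 1.95%, and was thus lowest in acinar and highest in T cells. Rps18 and the pseudogene-named rows Rps18-ps3, Rpl23a-ps3 and Rpl9-ps6 were also among the low ones. Rps18-ps3 had 58 acinar UMIs, and its acinar share was 0.0537% under barcode ending 1 and 0.183% under ending 2, above the endothelial 0.151%. Rpl4 took 0.379% in acinar cells and 0.656 to 0.869% elsewhere.

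Members with roles outside the ribosome were mixed. Rpl5 and Rpl11 form a particle with 5S rRNA that can bind the p53 regulator Mdm2, and together they took 1.41, 1.46, 1.24, 1.28 and 1.32% of ribosomal protein UMIs in acinar, ductal, endothelial, B and T cells. Rpl5 alone was highest in acinar cells (0.619%, against 0.260 to 0.399%), and Rpl11 was lowest there (0.790%, against 0.952 to 1.06%). The acinar value of Rpl5 differed between barcode endings: it was 0.661% under ending 1 (480 UMIs) and 0.328% under ending 2 (34 UMIs), which is below the ductal share of 0.399% and level with B and T cells. Rps6, the substrate of S6 kinases, took 0.918, 0.937, 1.22, 1.28 and 1.35%. Rps27a, made as a fusion with ubiquitin, took 1.58% in acinar and 1.33% in ductal cells, 1.26% in endothelial and B cells and marginally less in T cells.

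Paralog pairs other than Rps27 and Rps27l shifted less. Rpl22l1 held 60.0% of the UMIs of Rpl22l1 and Rpl22 in acinar cells (56.6 to 63.4), 47.3% in ductal (41.1 to 53.6), 42.9% in endothelial (38.2 to 47.6), 44.6% in B (40.7 to 48.5) and 55.2% in T cells (51.3 to 59.1). Rpl22 is known for its need in T cell development. The acinar and T cell intervals overlap. Within acinar cells the share of Rpl22l1 stood at a log2 ratio of -0.48 of barcode ending 2 over ending 1, and that of Rpl22 at 0.031. The acinar percent of this pair, and its place above T cells, thus depends on the ending. Rpl36al held 34.9% of the UMIs of Rpl36al and Rpl36a in acinar, 37.5% in ductal, 31.5% in endothelial, 23.3% in B and 22.8% in T cells. Rpl3 (0.874 to 1.12% of ribosomal protein UMIs), Rps4x (1.19 to 1.39%) and Rpl39 (1.23 to 1.68%) stayed in narrow ranges over the 5 classes, although within acinar cells Rpl3 took 1.17% under barcode ending 1 and 0.723% under ending 2, and Rps4x 1.39 and 0.945%. Rpl7l1 had 0.0325% in acinar cells and 0.0672% in endothelial cells. Their paralogs Rpl3l, Rps4l and Rpl10l were not analysed here.

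Rpl10 set ductal cells apart from the others. Its protein, encoded on chromosome X (74270812 to 74273135, plus strand), joins the large subunit late, near the site where peptide bonds form. Every 50-base stretch of its last 300 bases occurs in the row Rpl10-ps3, so both rows were summed. The sum took 1.37% of ribosomal protein UMIs in acinar cells, 2.11% in ductal (1.93 to 2.30), 1.22% in endothelial (1.13 to 1.31), 1.13% in B and 1.01% in T cells. The ductal share was 1.74 times the endothelial one (1.54 to 1.95). The other members at least 1.5-fold higher in ductal than in endothelial cells were Rpl10a, Rpl5, Rps18-ps3 and Rps27l.

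The balance of the subunits differed over the classes, with acinar and T cells furthest apart. Small-subunit genes took 36.7% of ribosomal protein UMIs in acinar, 40.0% in ductal, 42.3% in endothelial, 44.1% in B and 44.4% in T cells. Large-subunit genes without the stalk took 54.2, 52.5, 50.8, 49.0 and 47.9%. These sums count transcripts, so they do not give protein.

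Short members tended to have higher shares in acinar cells. Over 80 or 81 members with a coding length, the Spearman correlation of length with the log2 share ratio of acinar cells was -0.40 against ductal, -0.38 against endothelial, -0.34 against B and -0.40 against T cells. For ductal, B and T cells against endothelial cells it was -0.04, 0.00 and 0.09. Over the other genes above the floor the acinar values were 0.16, -0.14, 0.11 and 0.18. For ductal, B and T against endothelial cells those genes gave -0.32, -0.22 and -0.25, so a relation with length was not confined to acinar cells. The correlations are across genes, which are not independent, and all 4 acinar values share the acinar cells. The 40 members of at most 448.5 coding bases took 61.5% of acinar ribosomal protein UMIs and 51.7 to 52.9% of those of ductal, B and T cells. Most of that difference lay in Rpl41, Rplp1 and Rpl38, which took 8.10, 4.27 and 3.20% in acinar cells and 3.62, 1.38 and 1.87% in ductal cells. The median log2 share ratio of acinar to ductal cells was 0.11 in these 40 members and -0.56 in the 40 longer ones. Rps27, with 252 coding bases, is short and low, and Rpl5, with 891, is long and high, though not under barcode ending 2. RNA integrity was not measured, and its part in this relation was not tested.

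**Figure D4:**
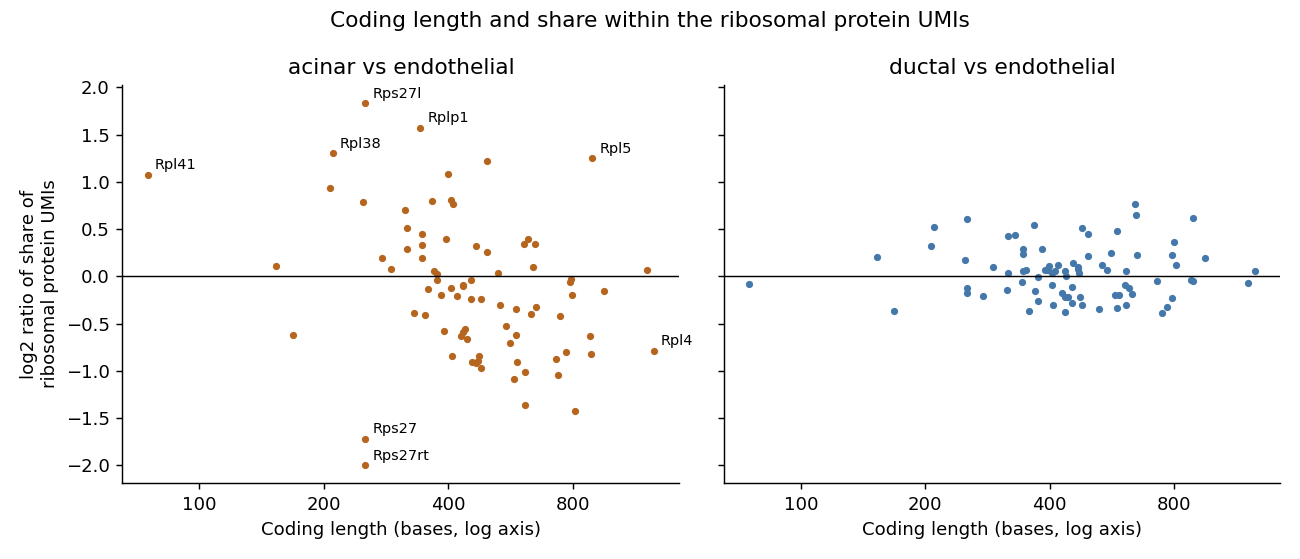
Each point is 1 member; the horizontal axis is its coding length in bases (log axis) and the vertical axis is the log2 ratio of its share of ribosomal protein UMIs in acinar (left) or ductal (right) over endothelial cells. Shorter members lie higher on the left (Spearman -0.38), with Rps27 and Rps27rt low and Rpl5 high off that trend, and no slope is seen on the right (-0.04).

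Within acinar cells the shares were compared between shallower and deeper cells, between barcode endings and between 4 equal groups by secretory share. Rpl41 took 7.10% of ribosomal protein UMIs in the 131 shallower and 8.25% in the 131 deeper cells, and 8.04% under ending 1 and 8.54% under ending 2. Rplp1 took 5.43 and 4.10% by depth, and 4.34 and 3.79% by ending. Rps27 and Rps27rt together took 0.965 and 1.31% by depth, and 1.27 and 1.20% by ending. From the group of lowest to that of highest secretory share they took 1.44, 1.53, 0.926 and 0.890%, so both groups of lower secretory share lay above both of higher share with intervals apart. Rpl41 took 7.78, 8.03, 8.55 and 7.83% and Rpl38 2.79, 3.09, 3.81 and 2.78% in the same groups. Every one of these lay on the same side of the ductal value as the whole acinar class. The summed ribosomal protein level was 7.41% of UMIs in the 217 acinar cells of ending 1 and 8.45% in the 45 of ending 2, a ratio of 1.14 (1.12 to 1.16). Outside secretory genes the endings lay further apart, at 31.9% (31.7 to 32.1) and 43.6% (43.0 to 44.2), with cell medians of 26.1 and 42.2%. Both lie above the ductal and endothelial values on that scale, and ending 2 also lies above the 40.6% of B cells. From the group of lowest to that of highest secretory share the level was 11.4, 8.10, 6.68 and 3.84% of all UMIs, while the cell medians outside secretory genes were 26.2, 26.2, 33.2 and 26.6%. On all UMIs the level was thus lower the higher the secretory share. Both are parts of the same total, so a fall of this kind is largely built into that scale. Outside secretory genes the level showed no such order.

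The pseudogene rows stood apart by barcode ending. They took 1.87% of acinar ribosomal protein UMIs under ending 1 (1.77 to 1.97) and 4.19% under ending 2 (3.81 to 4.59). The values were 2.81 and 6.06% in ductal cells (29 and 3 cells), 2.94 and 5.09% in B cells (99 and 2) and 2.64 and 5.28% in T cells (63 and 5). In endothelial cells, with 1 cell under ending 2, they were 2.82 and 3.53% and the intervals overlap. Of 10 such rows set beside the gene each copies, all 10 held a larger part of the pair under ending 2. Rpl10-ps3 held 8.18% of the UMIs of Rpl10-ps3 and Rpl10 under ending 1 (7.39 to 9.01) and 26.4% under ending 2 (22.9 to 30.3). Rpl27-ps3 held 24.6% and 42.0% of its pair, and Rps12-ps3 37.2% and 45.1%. These rows share long stretches with their parent genes, so a read can be given to either, and the labels do not say whether the libraries of the 2 endings were read or processed alike. Among all 90 members over the floor within acinar cells, 16 differed at least 1.5-fold in share between the endings, with Rpl10-ps3 the highest under ending 2 at a log2 ratio of 2.29. The pseudogene rows named above as low in acinar cells are therefore uncertain. Rps18-ps3, Rpl9-ps6 and Rpl23a-ps3 stood at log2 ratios of 1.79, 0.998 and 0.796 of ending 2 over ending 1. Rpl5, named as high in acinar cells, moved about as far, at -0.991, and is uncertain too.

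**Figure D5:**
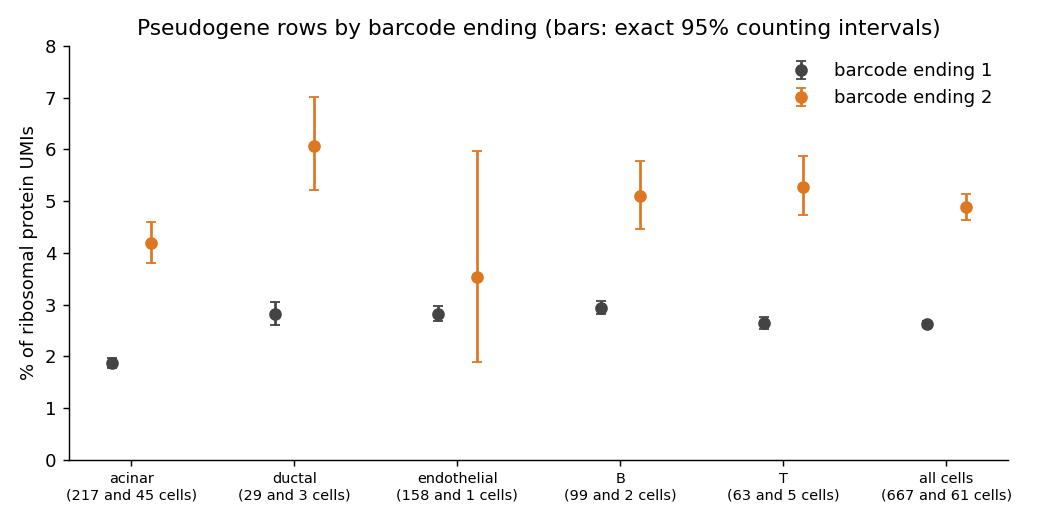
Percent of ribosomal protein UMIs from the 14 pseudogene rows, for cells whose barcode ends in 1 or 2, in each cell class and in all cells. Bars are exact 95% counting intervals and the number of cells of each ending stands under each class. Ending 2 is higher in each class, with intervals that overlap in endothelial cells, where it has 1 cell.

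Other genes of the translation machinery were set beside the members from lists chosen with earlier results of these data known. The ribosomal proteins Rpsa and Fau, whose symbols fall outside the rule, were both at least 2-fold higher in B and in T than in endothelial cells. Rpsa, which also serves as a laminin receptor, stood at log2 ratios of 1.90 and 2.30, and Fau at 1.68 and 1.51. In acinar cells they diverged: on all UMIs Rpsa was at a log2 ratio of 1.01 to endothelial cells and Fau at -2.31.

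Of 17 other genes known to carry a TOP motif, 5 of the 16 over the floor were at least 2-fold higher and 1 lower in B than in endothelial cells (12.8% and 42.8% of all genes), and 8 and 0 of 16 in T cells (13.4% and 44.3%). Eef1a1, which delivers aminoacyl-tRNA, stood at log2 ratios of 0.80 and 1.20, and Eef2, which moves the ribosome along, at 0.69 and 0.92. The list's median was 0.85 in B cells and 0.99 in T cells, against 1.41 and 1.65 for the ribosomal protein genes and -0.73 and -0.77 for all genes. Initiation factors stood lower: their medians were 0.23 and 0.01, with 2 of 15 higher and 1 lower in each, so the higher ones were as frequent as among all genes. Eif1, the start-codon factor, stood at 0.17 and 0.01. Of the 31 ribosome biogenesis genes 4 passed the floor, 0 were called in either class, and Ncl, which encodes nucleolin, stood at 0.61 and 0.79. Mitochondrial ribosomal proteins, which build a separate ribosome, had medians of -0.29 and -0.19, with 2 higher and 5 lower of 21 in B cells and 1 and 2 of 17 in T cells. The median of the ribosomal protein genes thus lay above those of these 4 lists in both classes.

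In acinar against endothelial cells 12 of 17 TOP genes and 14 of 21 initiation factors were at least 2-fold lower on all UMIs and 0 were higher, where 80.3% of all genes were lower and 7.37% higher. Outside secretory genes this turned, with 6 TOP genes higher and 2 lower and 10 initiation factors higher and 0 lower, where 21.3% of all genes were higher and 42.8% lower. Tpt1, an abundant TOP message, stood at a log2 ratio of 0.28 on all UMIs and 2.39 outside secretory genes, and Eif5a at -0.82 and 1.28. Of 26 mitochondrial ribosomal proteins 24 were lower on all UMIs (80.3% of all genes), and outside secretory genes 2 were higher and 3 lower (21.3% and 42.8%).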

How the data were processed

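The deposited file is 1 table of raw UMI counts per gene and cell, pooled over both samples, per the labels and its whole-number values. The authors used Cell Ranger and the mm10 build, per the submitters' processing notes. Their versions and the filter on cells were not given in the sources used here. Rows (14793) were summed to 14789 symbols (4 stood on more than 1 row), and 0 columns of per-sample values were left unused. Counts were summed over the cells of a class and divided by all UMIs of the class, by its UMIs outside 35 secretory genes, or by its ribosomal protein UMIs. Shares have exact Clopper-Pearson intervals and ratios exact conditional intervals, at 95%. Log2 ratios carry a prior of 0.5 counts, and a gene needed 50 UMIs over both classes. Calls were made at a fixed 2-fold ratio of levels and a 1.5-fold ratio of shares. No doublet caller was run, and the 10 cells meeting several class rules were left out. Thinning to 1000 UMIs used a fixed seed. Members, lists and tests were chosen with earlier results of these data known. Named genes were the 10 members with the highest level, the 5 highest and 5 lowest share ratios of each acinar comparison, close paralogs, the stalk and 5S particle genes, Rps6, Rps27a and the 3 most abundant genes of each list. Members named beyond that rule, such as Rpl10a, were chosen after their values were seen. Positions are from GENCODE M21 (GRCm38) and promoters from RefSeq. Other choices tried were the total, class cutoffs, cells of several classes, barcode endings, shared barcodes, thinning, mitochondrial share and the floor. Some genes that the rule names are not reported here. Code was tested on simulated data. Python 3.11.15, numpy 2.4.6, scipy 1.17.1 and pandas 2.3.3 were used.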

Additional observations from a re-analysis of the deposited data

How the results depend on the processing

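The summed level turned direction with the total: leaving secretory genes out moved acinar over ductal from 0.387 to 1.67 and acinar over endothelial from 0.511 to 2.19, and moved acinar over B from 0.189 to 0.814 and over T from 0.160 to 0.690. Members at least 2-fold lower in acinar cells then went from 73, 54, 86 and 88 to 1, 0, 23 and 34 against ductal, endothelial, B and T cells. The other alternatives kept each direction of the summed level. Stricter class cutoffs gave 0.303, 0.397, 0.148 and 0.125, and thinning each cell to 1000 UMIs gave 0.338, 0.441, 0.166 and 0.141. Keeping cells of several classes gave 0.473 against ductal, 0.194 against B and 0.167 against T cells, and 1.09, 2.65 and 3.09 for ductal, B and T over endothelial cells (1.32, 2.70 and 3.20 otherwise). Barcode ending 1 alone gave 0.394 against ductal and 0.504 against endothelial cells, and 1.28 for ductal over endothelial. Leaving out shared barcodes gave 0.506, 0.187 and 0.158 against endothelial, B and T cells. Without cells over 10% mitochondrial UMIs the acinar over ductal ratio was 0.372 and the ductal over endothelial ratio 1.38. Thinning gave 2.65 and 3.14 for B and T over endothelial cells, and a floor of 20 UMIs gave 2 lower members in T cells in place of 1. The counts of members past 1.5-fold in share, 41, 44, 42 and 37, stayed within 1.5 times of these values in each alternative run, and each called member still over the floor kept its direction. Of these, 28 to 41, 39 to 44, 36 to 42 and 35 to 37 were called again. Over all members, 108 single-gene values moved beyond their interval, 757 did not and 0 turned direction. That count of 0 does not cover the change of total, under which levels of single members did turn. Rps29 in acinar over ductal cells, for example, went from a log2 ratio of -1.62 on all UMIs to 0.49 outside secretory genes. Barcode ending 2 alone gave no value, since no comparison had 10 such cells in both classes. No paired analysis was possible because no label says which of the 2 replicates a cell is from. Rows with few UMIs, such as Rps27l in B and T cells (41 and 25), are limited by depth, and the cause of the other changes was not tested.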
